A study of Homo sapiens with 6 samples.

Results

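The mRNAs of translation initiation factors (symbols that begin with EIF and a digit) and elongation factors (symbols that begin with EEF and a digit) were followed in HaCaT cells after knockdown of IQGAP2. These symbols named 62 of the 12829 genes of the deposited expression table, once the 4 kinases of the EIF2AK group, which act on eIF2 but are no initiation factors, had been set aside. HaCaT cells are aneuploid, immortalised human keratinocytes, often taken to stand for the epidermis in culture. The study compared 3 RNA-seq libraries of HaCaT cells with a short hairpin RNA against IQGAP2, a scaffold protein that binds calmodulin and actin, with 3 libraries of HaCaT cells labelled as normal control and wild type. All cells were grown in the same serum-containing medium. The series title names proliferation and the mTOR pathway, whose kinase acts on several of the proteins described here. The labels state neither how many hairpins or clones were used nor whether control cells carried a non-targeting hairpin. The sample titles call the replicates biological but do not say whether they were separate cultures. The p-values cover only the spread among these libraries.

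Translation of most mRNAs begins when eIF4E binds the cap at the start of the mRNA and joins the scaffold eIF4G and the helicase eIF4A. The scaffold then docks on eIF3, a large complex that sits on the small ribosomal subunit and carries the initiator tRNA complex of eIF2 with it. The 4E-BP proteins compete with eIF4G for eIF4E until mTOR phosphorylates them. Phosphorylation of eIF2 turns it into an inhibitor of its own exchange factor, eIF2B. After start codon selection, with the help of eIF1, eIF1A, eIF5 and eIF5B, the elongation factors eEF1A and eEF2 bring aminoacyl-tRNA and move the ribosome on. Many mRNAs of this machinery, those of eEF1A and eEF2 among them, begin with a terminal oligopyrimidine (TOP) tract, through which mTOR and the protein LARP1 control their translation.

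The 62 mRNAs split in both directions in the knockdown. Levels are in FPKM, that is, fragments divided by gene length and by library size, given for replicates 1, 2 and 3 in that order or as the mean ± SD (n = 3 a group). Log2 changes are differences in mean log2(FPKM + 1), knockdown less control, and for low genes they are smaller than the true change. A gene is said to have risen or fallen where the adjusted p of limma over all 11214 tested genes was under 0.05. By this measure 15 members rose, 20 fell and 27 did not pass. That is 24.2% higher and 32.3% lower, beside 29.5% higher and 27.8% lower, or 57.4% in either direction, among all genes tested. The share of members that moved was thus near that of any gene, and the median change was -0.05 in members and 0.01 in all genes. Knockdown and control values did not overlap for 41 members, 16 above and 25 below control, which is 66.1% of members. Among all genes 33.7% lay above and 31.4% below control, 65.1% together.

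The largest rise was that of EIF5, at 1.88 times the control mean, and the largest fall that of EIF3G, at 0.632 times the control mean. Of the 35 calls, 9 rises (EIF1, EIF1AX, EIF3J, EIF4A1, EIF4G1, EIF4G2, EIF4G3, EIF5 and EIF5A2) and 6 falls (EEF1AKMT4, EIF3B, EIF3F, EIF3G, EIF3H and EIF4E2) held in each of the 15 alternative settings that could be fitted for the gene. These settings varied the pseudocount, the filter on low values, the scaling between libraries, the trend over gene length and the model, and left out each library in turn. Scaling ended more of the other calls than any other choice. The FPKM of all genes summed to between 234624 and 248082 in knockdown libraries and between 271372 and 274709 in control libraries. When each library was rescaled to a common sum, the median change of all genes moved to 0.14, and 23 members were higher and 6 lower, beside 43.4% higher and 16.4% lower among all genes. No member called on the deposited values changed sign under that rescaling, but 14 of the 20 falls no longer passed.

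**Figure D1:**
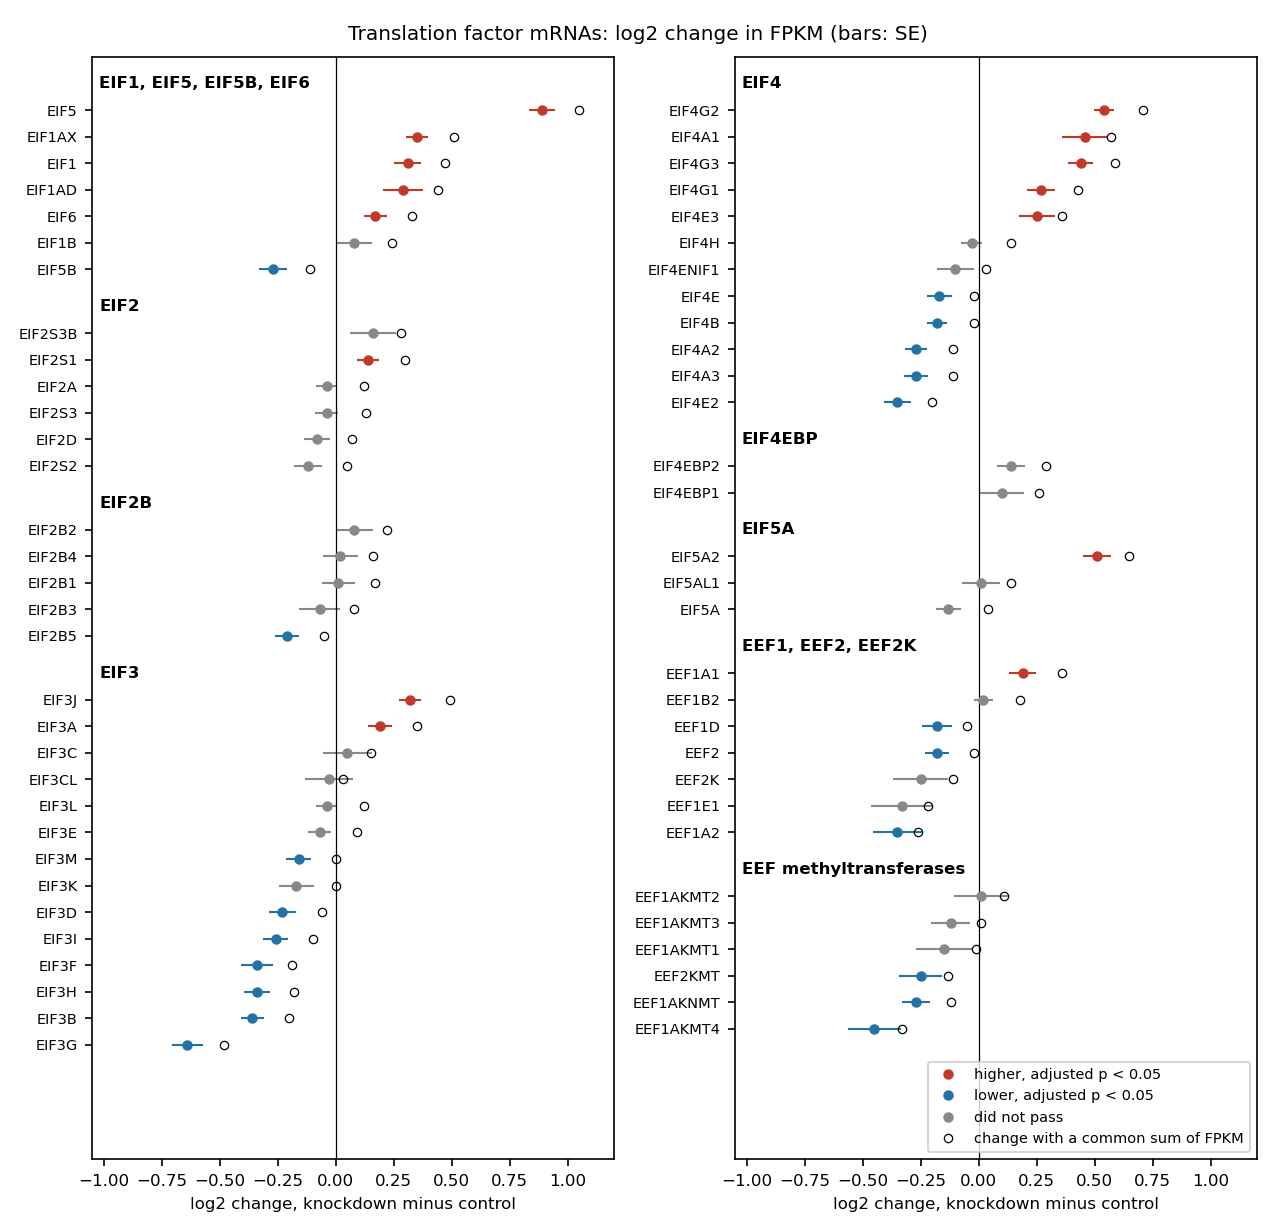
Log2 change of each of the 62 members by complex (horizontal axis, difference in mean log2(FPKM + 1), knockdown less control; bars are the SE of limma, n = 3 a group), coloured by the test at an adjusted p of 0.05, with open circles for the change after rescaling each library to a common sum of FPKM. EIF5 at 0.89 and EIF3G at -0.64 are the outermost points, and the open circles lie to the right of the filled ones.

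The libraries behind these values held between 12901037 and 15360759 recovered reads in the knockdown group and between 13957447 and 15122470 in the control group. IQGAP2 was at 0.0196, 0.0328 and 0.0182 FPKM in knockdown libraries, against 0.2, 0.198 and 0.19 FPKM in control libraries (log2 change -0.22, SE 0.0719, limma adjusted p = 0.0217 with this gene, which is under the filter on low values, added to the genes tested). Basal keratinocyte markers (6 of 6 in the table) summed to between 4136 and 4534 FPKM after knockdown and between 4087 and 4194 FPKM in controls. Markers of melanocytes, fibroblasts, leukocytes and endothelium were low. Of 5 fibroblast markers, 3 were in the table and summed to between 1.56 and 1.91 FPKM after knockdown and between 3.46 and 3.79 FPKM in controls, and their part in the results was not tested. Knockdown replicate 2 stood apart from its group: the root mean square difference in log2 values over the 62 members was 0.177 and 0.166 to knockdown replicates 1 and 3, which differed from each other by 0.121, and control libraries by at most 0.145. Without knockdown replicate 2, 16 members were higher and 21 lower. In bulk RNA, fewer cells of a type and less RNA per cell cannot be told apart.

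The starts of these mRNAs are shown because a TOP tract there is a feature through which mTOR signalling is known to control translation of mRNAs of this family. FPKM give mRNA levels and do not measure that translation. Sequences are from the RefSeq promoter table for GRCh38.p14, which held 48 of the 62 members, and run 5′ to 3′ over 30 bases, the last 20 of them from the annotated start onwards. Capitals mark a C followed by at least 4 further C or T bases, where that C lies within 5 bases of the annotated start. The first 5 are the members with an entry that are known as TOP mRNAs. EEF1B2 has 2 annotated starts, and the one not shown has no such tract. EIF5, with the largest rise, also has 2, both shown, and EIF3B, with the second largest fall in eIF3, is shown as a start without such a tract.
EEF1A1 at chr6:73521013-73521042, minus strand: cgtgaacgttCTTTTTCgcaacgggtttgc
EEF2 at chr19:3985444-3985473, minus strand: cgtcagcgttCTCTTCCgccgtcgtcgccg
EEF1B2 at chr2:206159885-206159914, plus strand: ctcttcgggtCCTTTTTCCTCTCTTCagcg
EIF4B at chr12:53006446-53006475, plus strand: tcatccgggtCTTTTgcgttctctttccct
EIF3F at chr11:7987327-7987356, plus strand: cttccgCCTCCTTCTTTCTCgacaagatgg
EIF5 at chr14:103334227-103334256, plus strand: ggcgttgttcagtcagagcgagaacattcc
EIF5 at chr14:103334878-103334907, plus strand: ggcacCCCTCggccgtgtgtcgcttcccgg
EIF3B at chr7:2354817-2354846, plus strand: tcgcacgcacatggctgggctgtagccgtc

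In EEF1A1, EEF2, EIF4B and the start shown for EEF1B2 the tract begins at the annotated first base, and in EIF3F it begins 4 bases before it. One of the starts of EIF5 has a tract of the minimum length 5 bases upstream, and the other has none. Such a tract stood at 1 or more starts of 23 of the 48 members (47.9%), beside 28.0% of the 15843 protein-coding genes in the table. It was found in 7 of 14 members that rose (EEF1A1, EIF1, EIF3J, EIF4G1, EIF4G2, EIF5 and EIF5A2), in 7 of 14 that fell (EEF2, EIF3D, EIF3F, EIF3M, EIF4A2, EIF4B and EIF4E2) and in 9 of 20 that did not pass. Members with and without the tract thus stood on both sides of the comparison. The match is a description of the letters at annotated starts, which may not be the starts used in these cells.

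Of 9 factors listed as known TOP mRNAs, 8 were measured: 1 rose (EEF1A1), 5 fell (EEF1D, EEF2, EIF3F, EIF3H and EIF4B) and EEF1B2 and EIF3E did not pass, with a median change of -0.18. Among all genes 29.5% rose and 27.8% fell, with a median of 0.01. With a common sum of FPKM, 2 of the 8 were higher and 2 lower, with a median of -0.02. All genes were then 43.4% higher and 16.4% lower, with a median of 0.14. EEF1D (-0.05), EEF2 (-0.02) and EIF4B (-0.02) no longer passed as lower, and EEF1B2 passed as higher (0.18).

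Of 7 mRNAs of the group of eIF1, eIF5, eIF5B and eIF6, most of which act in start codon recognition and subunit joining, 5 rose and 1 fell, with a median change of 0.29. That is 71.4% higher and 14.3% lower, beside 29.5% and 27.8% of all genes. EIF5, the GTPase-activating protein of eIF2, was at 66.2, 75 and 67.6 FPKM in knockdown libraries, against 36.7, 38.5 and 36.1 FPKM in control libraries. All knockdown libraries lay far above all control libraries (log2 change 0.89, SE 0.0555, limma adjusted p = 1.41e-06). EIF1AX, the eIF1A that helps the small subunit scan, was at 42.5, 45 and 42.7 FPKM in knockdown libraries, against 32.8, 35 and 33.7 FPKM in control libraries. These groups did not overlap either (log2 change 0.35, SE 0.0467, limma adjusted p = 1.61e-04). EIF1, which guards against wrong start codons, rose with them, at 241 ± 17 FPKM after knockdown and 194 ± 4.23 FPKM in controls (log2 change 0.31, SE 0.0576, limma adjusted p = 0.00123). EIF1AD, a protein with an eIF1A-like domain, averaged 8.79 ± 0.513 FPKM after knockdown and 7.01 ± 0.896 FPKM in controls (log2 change 0.29, adjusted p = 0.014).

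EIF6, which keeps the large ribosomal subunit from joining too early, rose least in this group, at 84.8 ± 4.82 FPKM after knockdown and 75.3 ± 1.02 FPKM in controls (log2 change 0.17, SE 0.050, limma adjusted p = 0.0164). The call was lost without knockdown replicate 3 (adjusted p = 0.0694) or control replicate 3 (adjusted p = 0.0678, the range over the deposited and all alternative settings being 4.61e-05 to 0.0694). EIF5B, the GTPase that joins the ribosomal subunits, was the one member that fell, at 28.6, 25.5 and 29.1 FPKM in knockdown libraries, against 33.1, 35.4 and 32.7 FPKM in control libraries (log2 change -0.27, SE 0.0595, limma adjusted p = 0.003). With a common sum its change was -0.11, which missed the threshold (adjusted p = 0.0888, the range over all settings being 7.39e-04 to 0.0888). EIF1B, the paralogue of EIF1, averaged 12.2 ± 1.17 FPKM after knockdown and 11.5 ± 0.981 FPKM in controls (adjusted p = 0.391), but was called higher with a common sum (log2 change 0.24, adjusted p = 0.04) and with the length trend removed (0.24, adjusted p = 0.0447). The EIF1AD call was lost without control replicate 2 (adjusted p = 0.0508, range over settings 0.00181 to 0.0508).

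The mRNAs of eIF2, the complex that brings the initiator tRNA, changed little. Of its 3 subunits and 3 related proteins, 1 rose and none fell (median change -0.04), beside 29.5% and 27.8% of all genes. EIF2S1, the alpha subunit that stress kinases phosphorylate, was at 30.8, 33.2 and 32.1 FPKM in knockdown libraries, against 28.4, 29.1 and 29.5 FPKM in control libraries. The groups did not overlap, though the difference was small (log2 change 0.14, SE 0.0469, limma adjusted p = 0.0272). That call was lost without knockdown replicate 3, without any one control library and with the length trend removed (adjusted p 0.0517 to 0.102). EIF2S2, the beta subunit, averaged 150.5 ± 10.4 FPKM after knockdown and 163 ± 7.28 FPKM in controls, and EIF2S3, the gamma subunit, averaged 105 ± 5.61 FPKM after knockdown and 108 ± 1.75 FPKM in controls. Neither passed (adjusted p = 0.123 for EIF2S2 and 0.538 for EIF2S3), and both changes turned positive with a common sum.

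EIF2S3B, a retrogene copy of EIF2S3 whose reads may have been divided with it, averaged 3.05 ± 0.522 FPKM after knockdown and 2.61 ± 0.191 FPKM in controls. EIF2A, an alternative initiator tRNA carrier, averaged 32.6 ± 0.916 FPKM after knockdown and 33.5 ± 0.668 FPKM in controls. EIF2D, which also binds initiator tRNA and has a role in recycling, averaged 8.77 ± 0.288 FPKM after knockdown and 9.34 ± 0.239 FPKM in controls. None of these 3 passed (adjusted p = 0.193, 0.464 and 0.227), although EIF2S3B was called higher with a common sum (0.28) and EIF2D lower with the length trend removed (-0.18).

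The exchange factor eIF2B reloads eIF2 with GTP. Of its 5 subunit mRNAs only EIF2B5, which encodes the catalytic epsilon subunit, passed, and it was lower. Among all genes tested 57.4% passed in either direction. EIF2B5 was at 14.8, 14.9 and 14.7 FPKM in knockdown libraries, against 18.3, 16.4 and 17.3 FPKM in control libraries. Its knockdown values were close together and below every control value (log2 change -0.21, SE 0.0532, limma adjusted p = 0.00677), but the change was -0.05 with a common sum (adjusted p = 0.469, range over settings 9.64e-04 to 0.469). EIF2B1, the alpha subunit, averaged 26.5 ± 2.58 FPKM after knockdown and 26.3 ± 1.35 FPKM in controls, and EIF2B2, the beta subunit, averaged 5.18 ± 0.485 FPKM after knockdown and 4.84 ± 0.418 FPKM in controls. EIF2B3, the gamma subunit, averaged 7.37 ± 0.833 FPKM after knockdown and 7.76 ± 0.796 FPKM in controls, and EIF2B4, the delta subunit, averaged 4.36 ± 0.267 FPKM after knockdown and 4.28 ± 0.37 FPKM in controls. In these 4 the groups overlapped, and the adjusted p was between 0.402 and 0.928. With a common sum EIF2B1 and EIF2B2 were called higher (log2 changes 0.17 and 0.22).

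The subunits of eIF3 did not move together. Of 14 eIF3 mRNAs, 2 rose, 7 fell and 5 did not pass, with a median change of -0.17 and a range from -0.64 to 0.32. Values of 10 lay below control in every knockdown library and those of 2 above, beside 31.4% below and 33.7% above among all genes. EIF3G, an RNA-binding subunit that works in scanning, was at 23.6, 19.2 and 21.8 FPKM in knockdown libraries, against 33.8, 34.3 and 34.1 FPKM in control libraries. The knockdown values were about 0.632 times the control ones, with replicate 2 the lowest (log2 change -0.64, SE 0.0664, limma adjusted p = 3.24e-05). EIF3B, a core scaffold subunit, was at 29.4, 26.7 and 28.7 FPKM in knockdown libraries, against 37.7, 35.9 and 36.1 FPKM in control libraries. It too fell in every library (log2 change -0.36, SE 0.0503, limma adjusted p = 2.10e-04).

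EIF3F and EIF3H, which form a pair of related subunits at the edge of the complex, both fell, with 9.15 ± 0.857 FPKM after knockdown and 11.8 ± 0.0974 FPKM in controls for EIF3F (log2 change -0.34, adjusted p = 0.00176) and 44 ± 3.15 FPKM after knockdown and 56 ± 0.694 FPKM in controls for EIF3H (log2 change -0.34, adjusted p = 4.61e-04). EIF3I, the partner of EIF3B and EIF3G, averaged 18.1 ± 1.06 FPKM after knockdown and 21.9 ± 0.288 FPKM in controls (log2 change -0.26, adjusted p = 0.00226). EIF3D, a subunit that can bind the cap itself, averaged 83.8 ± 5.72 FPKM after knockdown and 98.2 ± 4.08 FPKM in controls (log2 change -0.23, adjusted p = 0.00703). EIF3M averaged 34.2 ± 1.93 FPKM after knockdown and 38.4 ± 1.68 FPKM in controls (log2 change -0.16, adjusted p = 0.0262). The falls of EIF3D, EIF3I and EIF3M did not pass with a common sum (log2 changes -0.06, -0.10 and 0.00). That of EIF3I was also lost with the length trend removed (-0.09), but the length used for it is uncertain. That of EIF3M did not pass with quantile normalization (adjusted p = 0.058) or without control replicate 1 (adjusted p = 0.114) or 2 (adjusted p = 0.0598, range over settings 0.00626 to 0.971).

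The subunits that rose were EIF3J and EIF3A. EIF3J, a loosely bound subunit near the decoding site, was at 58.2, 54.5 and 54.8 FPKM in knockdown libraries, against 42.9, 45 and 45.5 FPKM in control libraries. Each knockdown library was above each control library (log2 change 0.32, SE 0.047, limma adjusted p = 2.76e-04). EIF3A, the largest subunit and a scaffold of the complex, was at 54.8, 61.8 and 56.7 FPKM in knockdown libraries, against 51.4, 49.3 and 51.1 FPKM in control libraries, highest in knockdown replicate 2 (log2 change 0.19, SE 0.0525, limma adjusted p = 0.0122). The EIF3A call was lost without control replicate 2 (adjusted p = 0.0545, range over settings 6.40e-04 to 0.0545).

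Ratios within a library do not depend on its scaling. The ratio of EIF3A to EIF3G was 2.33, 3.21 and 2.6 in knockdown libraries, against 1.52, 1.44 and 1.5 in control libraries, and that of EIF3J to EIF3G was 2.47, 2.83 and 2.52 in knockdown libraries, against 1.27, 1.31 and 1.33 in control libraries. These ratios were chosen after the values had been seen and are given as a description, with no test. EIF3E averaged 12.1 ± 0.128 FPKM after knockdown and 12.7 ± 0.0824 FPKM in controls, EIF3K 52.5 ± 5.93 FPKM after knockdown and 58.9 ± 2.4 FPKM in controls and EIF3L 19.9 ± 0.315 FPKM after knockdown and 20.4 ± 0.207 FPKM in controls. In all 3 each knockdown value was below each control value, yet none passed (adjusted p = 0.255, 0.0805 and 0.514). EIF3E had 5986 to 7339 recovered reads a library, more than EIF3A in each of them. The length behind its FPKM was therefore longer than that of EIF3A, whereas GENCODE v29 gives 6005 bases for EIF3E and 7101 for EIF3A. Its FPKM should not be set beside those of other subunits. EIF3K was called lower without knockdown replicate 1 (-0.22) and with voom (-0.18). EIF3C and EIF3CL, near-identical copies on chromosome 16, were listed at 1.5 ± 0.314 FPKM after knockdown and 1.4 ± 0.215 FPKM in controls for EIF3C and 0.59 ± 0.0866 FPKM after knockdown and 0.63 ± 0.206 FPKM in controls for EIF3CL, far below the other subunits, and how reads were divided between the copies or dropped is uncertain.

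**Figure D2:**
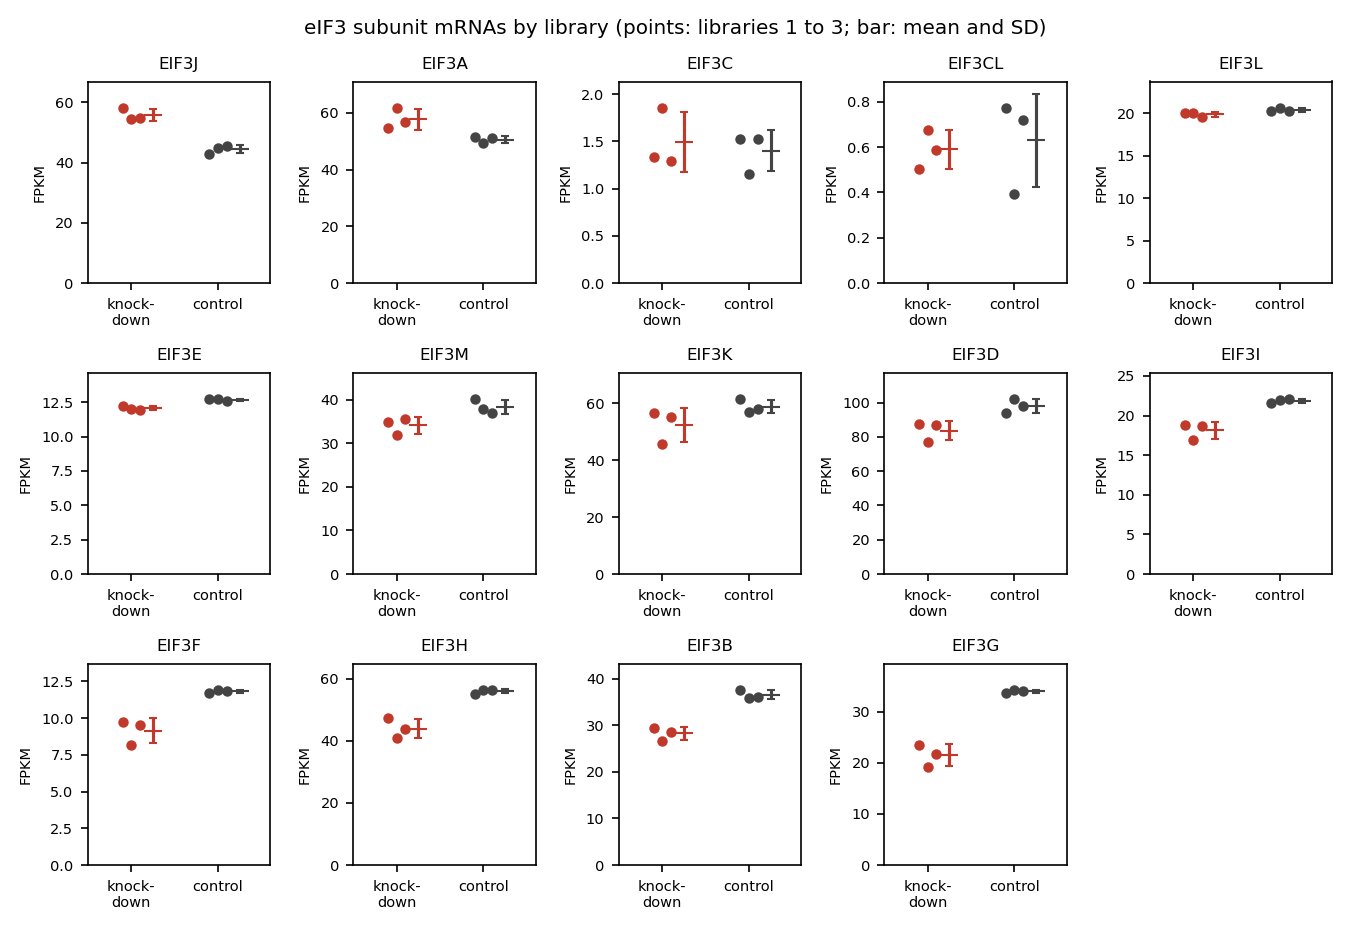
FPKM of the 14 eIF3 mRNAs in each library (vertical axes from 0; points are replicates 1 to 3 from left to right, bars the mean and SD of 3 libraries), knockdown left of control, ordered by log2 change. The panels run from EIF3J, at 54.5 to 58.2 FPKM after knockdown and 42.9 to 45.5 FPKM in controls, to EIF3G, at 19.2 to 23.6 FPKM after knockdown and 33.8 to 34.3 FPKM in controls.

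The eIF4 group, which recognises the cap and unwinds the mRNA, split evenly on the deposited values, with 5 of 12 higher and 5 lower. That is 41.7% each way, beside 29.5% higher and 27.8% lower among all genes. All 3 eIF4G scaffold mRNAs rose, while 2 of 3 eIF4E homologue mRNAs and 2 of 3 eIF4A helicase mRNAs fell and 1 of each rose. With a common sum of FPKM the rises still passed and EIF4H was called higher too, while of the falls only that of EIF4E2 still passed. Among all genes 43.4% were then higher and 16.4% lower. EIF4G2, which encodes the eIF4G relative DAP5 that lacks an eIF4E binding site, was at 110.0, 118 and 112 FPKM in knockdown libraries, against 77.4, 78 and 77.4 FPKM in control libraries. The groups were far apart, and the difference was many times the spread (log2 change 0.54, SE 0.0444, limma adjusted p = 7.86e-06). EIF4G3 was at 9.98, 10.2 and 10.1 FPKM in knockdown libraries, against 7.33, 7.23 and 6.91 FPKM in control libraries (log2 change 0.44, SE 0.0544, limma adjusted p = 9.43e-05). EIF4G1, the main scaffold, was at 78.5, 91.8 and 79.9 FPKM in knockdown libraries, against 68.4, 69.6 and 69.1 FPKM in control libraries (log2 change 0.27, SE 0.0598, limma adjusted p = 0.0035). Knockdown replicate 2 was the highest in all 3 genes, and no knockdown value reached down to a control value.

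The cap-binding protein mRNA EIF4E, in contrast, was at 8.12, 8.23 and 8.04 FPKM in knockdown libraries, against 9.05, 9.54 and 9.32 FPKM in control libraries. It fell by a small amount (log2 change -0.17, SE 0.0537, limma adjusted p = 0.0183). The call was lost with a common sum (log2 change -0.02), without knockdown replicate 3 (adjusted p = 0.0502) and without control replicate 2 (adjusted p = 0.0744) or 3 (adjusted p = 0.0606). The adjusted p ranged over settings from 3.54e-04 to 0.756. The lowest came with the length trend removed (log2 change -0.36), but the length used for EIF4E is uncertain. EIF4E2, a cap-binding homologue that does not bind eIF4G well and serves in repression, was at 6.88, 7.17 and 7.0 FPKM in knockdown libraries, against 9.3, 9.46 and 8.79 FPKM in control libraries. Its fall was larger and held in every setting (log2 change -0.35, SE 0.0568, limma adjusted p = 5.68e-04). EIF4E3, a more distant homologue, was low and rose, at 2.58, 2.67 and 2.4 FPKM in knockdown libraries, against 2.11, 1.77 and 2.11 FPKM in control libraries (log2 change 0.25, SE 0.0772, limma adjusted p = 0.0202), a call lost with the length trend removed (log2 change 0.10) and without knockdown replicate 1 (adjusted p = 0.0501) or control replicate 2 (adjusted p = 0.0863), the range over settings being 0.00405 to 0.276. EIF4ENIF1, which carries eIF4E into the nucleus, averaged 3.27 ± 0.161 FPKM after knockdown and 3.58 ± 0.372 FPKM in controls and did not pass (adjusted p = 0.296).

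Among the helicases, EIF4A2 was at 82, 86.6 and 78.8 FPKM in knockdown libraries, against 100.2, 102 and 97.5 FPKM in control libraries. All knockdown values were lower (log2 change -0.27, SE 0.0478, limma adjusted p = 8.54e-04). EIF4A3, a helicase of the exon junction complex, averaged 27 ± 1.52 FPKM after knockdown and 32.6 ± 0.795 FPKM in controls (log2 change -0.27, adjusted p = 0.00163). EIF4B, the cofactor of the helicase, averaged 41.8 ± 0.248 FPKM after knockdown and 47.6 ± 1.24 FPKM in controls (log2 change -0.18, adjusted p = 0.00445). With a common sum these falls were -0.11, -0.11 and -0.02 and did not pass. EIF4H, a related cofactor, averaged 80.1 ± 1.61 FPKM after knockdown and 81.6 ± 3.08 FPKM in controls and did not pass (adjusted p = 0.64), while its change was 0.14 with a common sum (adjusted p = 0.0368, range over settings 0.0368 to 0.986).

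EIF4A1, usually the main helicase gene of dividing cells, was listed at 2.81, 3.24 and 2.32 FPKM in knockdown libraries, against 1.91, 1.8 and 1.54 FPKM in control libraries. It rose (log2 change 0.46, SE 0.0993, limma adjusted p = 0.0029), on only 168 to 261 reads in knockdown and 113 to 151 reads in control libraries. In GENCODE v29, 48.6% of its exonic bases are shared with other annotated genes, 29.8% with the read-through gene SENP3-EIF4A1, and 13 processed copies carry its name. How shared reads were counted is not given, so the level and the change of EIF4A1 are uncertain.

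**Figure D3:**
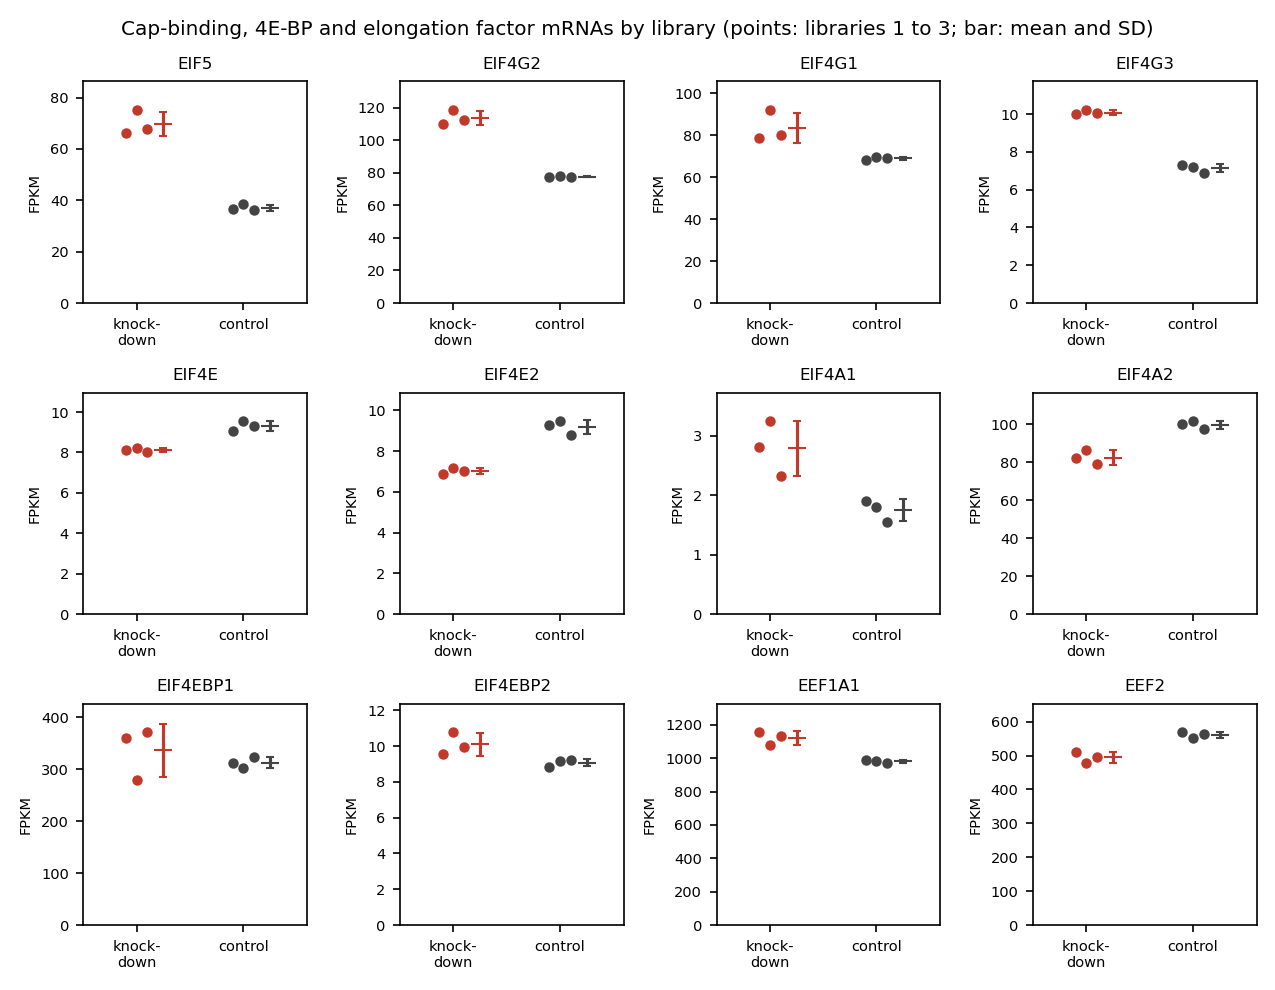
FPKM of 12 members in each library (vertical axes from 0; points are replicates 1 to 3 from left to right, bars the mean and SD of 3 libraries), knockdown left of control. EIF5 and the 3 eIF4G genes lie wholly above control, EIF4E, EIF4E2, EIF4A2 and EEF2 wholly below, and EIF4EBP1 in knockdown replicate 2, at 278 FPKM, lies below the 3 control libraries.

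The 4E-BP mRNAs, whose proteins hold back eIF4E until mTOR signalling releases it, did not pass the test. EIF4EBP1 was among the most abundant members, at 361, 278 and 371 FPKM in knockdown libraries, against 312, 303 and 324 FPKM in control libraries. Knockdown replicates 1 and 3 were above all control libraries and replicate 2 was below them, so the groups overlapped (log2 change 0.10, SE 0.0957, limma adjusted p = 0.416). Without knockdown replicate 2 the change was 0.23 (adjusted p = 2.80e-04, range over settings 2.80e-04 to 0.877). It also passed as higher with a common sum (0.26), with quantile normalization (0.29) and with the length trend removed (0.28), so for EIF4EBP1 the call rested on 1 library and on the scaling.

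EIF4EBP2 was at 9.55, 10.8 and 9.96 FPKM in knockdown libraries, against 8.85, 9.19 and 9.2 FPKM in control libraries. Every knockdown value was higher, by little (log2 change 0.14, SE 0.0596, limma adjusted p = 0.072), and the gene passed with a common sum (log2 change 0.29, adjusted p = 0.00504) and without knockdown replicate 1 (0.17, adjusted p = 0.0464, range over settings 0.00504 to 0.33). EIF4EBP3 is not analysed here. The summed FPKM of EIF4EBP1 and EIF4EBP2 divided by that of EIF4E was 45.6, 35.1 and 47.4 in knockdown libraries, against 35.4, 32.7 and 35.7 in control libraries. The groups overlapped by knockdown replicate 2, and an exact two-sided permutation test gave p = 0.3, where 3 libraries against 3 cannot give less than 0.1. Without knockdown replicate 2 the ratio was higher by 11.9 in the knockdown, in place of 8.09, with no overlap left.

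EIF5A encodes the factor that, once modified to hypusine, keeps ribosomes from stalling at prolines. It was at 137, 121 and 134 FPKM in knockdown libraries, against 145, 144 and 139 FPKM in control libraries. Each knockdown value was below each control value, but the gene did not pass (log2 change -0.13, SE 0.0546, limma adjusted p = 0.07). It was called lower with voom on recovered reads (-0.13, adjusted p = 0.044) and when knockdown replicate 1 was left out (-0.16, adjusted p = 0.0421), and its change was 0.04 with a common sum (range of adjusted p over settings 0.0421 to 0.721). Its paralogue EIF5A2 was at 7.4, 7.97 and 7.41 FPKM in knockdown libraries, against 5.19, 4.9 and 5.0 FPKM in control libraries. It rose to 1.51 times the control mean (log2 change 0.51, SE 0.061, limma adjusted p = 8.08e-05). EIF5AL1, a retrogene copy of EIF5A, averaged 3.59 ± 0.387 FPKM after knockdown and 3.57 ± 0.259 FPKM in controls (adjusted p = 0.958).

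EEF1A1 and EEF2 were the most abundant of all members. EEF1A1, which brings aminoacyl-tRNA to the ribosome, was at 1155, 1078 and 1131 FPKM in knockdown libraries, against 989.5, 981 and 974 FPKM in control libraries. The knockdown values were all higher (log2 change 0.19, SE 0.0575, limma adjusted p = 0.0161). EEF2, which moves the ribosome by a codon, was at 510.3, 477 and 496 FPKM in knockdown libraries, against 568, 551 and 565 FPKM in control libraries. The knockdown values were all lower (log2 change -0.18, SE 0.0514, limma adjusted p = 0.0115), so that the most abundant pair of elongation factors moved in opposite directions on the deposited values.

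Neither call held in every setting. That of EEF1A1 was lost on leaving out any library but knockdown replicate 2 (adjusted p 0.0563 to 0.0784), while its change was positive in all settings. That of EEF2 was lost without control replicate 1 or 3 (adjusted p = 0.0568 and 0.0567) and with a common sum (log2 change -0.02), and with quantile normalization EEF2 passed as higher (0.10, adjusted p = 0.0347, range over settings 7.19e-04 to 0.739). No direction is given for EEF2 beyond the deposited scaling. EEF1A1 has 39 processed copies by name in GENCODE v29, so its reads may have been divided or dropped.

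EEF1A2, the eEF1A of muscle and nerve, was near the lower limit, at 0.765, 0.87 and 0.714 FPKM in knockdown libraries, against 1.65, 0.997 and 1.21 FPKM in control libraries (log2 change -0.35, SE 0.105, limma adjusted p = 0.0165). The fall rests on 48 to 65 reads in knockdown and 68 to 121 in control libraries and was lost with a common sum (adjusted p = 0.0525) and without knockdown replicate 3 (adjusted p = 0.0505) or control replicate 1 (adjusted p = 0.0618), the range over settings being 0.00739 to 0.0618. EEF1B2, the exchange factor of eEF1A, averaged 137 ± 0.215 FPKM after knockdown and 136 ± 2.57 FPKM in controls and did not pass (adjusted p = 0.77). It passed as higher with a common sum (log2 change 0.18, adjusted p = 0.00411) and with the length trend removed (0.17, adjusted p = 0.00605, range over settings 0.00411 to 0.959).

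EEF1D, another exchange subunit, averaged 3.44 ± 0.0793 FPKM after knockdown and 4.04 ± 0.10 FPKM in controls (log2 change -0.18, SE 0.0636, limma adjusted p = 0.0313), and its call was lost with a common sum, with a replicate block, without knockdown replicate 3 and without any one control library (adjusted p 0.0591 to 0.563). In GENCODE v29, 34.0% of its exonic bases are shared with other genes. EEF1E1, which is also a part of the multi-tRNA synthetase complex, averaged 1.73 ± 0.429 FPKM after knockdown and 2.43 ± 0.497 FPKM in controls on 44 to 64 reads a knockdown and 55 to 84 a control library (adjusted p = 0.0527). It was called lower without knockdown replicate 3 (log2 change -0.45), without control replicate 2 (-0.46), with quantile normalization (-0.37) and with a replicate block (-0.33). EEF1G, the remaining subunit, is not analysed here.

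EEF2K, the kinase that phosphorylates and stops eEF2 and is itself held back through mTOR signalling, was at 4.03, 6.49 and 5.03 FPKM in knockdown libraries, against 6.44, 6.28 and 6.11 FPKM in control libraries. Knockdown replicates 1 and 3 lay below control and replicate 2 above it, and the gene did not pass (log2 change -0.25, SE 0.12, limma adjusted p = 0.0949). Without knockdown replicate 2 it passed as lower (log2 change -0.40, adjusted p = 0.00211), as it did with the length trend removed (-0.35, adjusted p = 0.0155) and with quantile normalization (-0.29, adjusted p = 0.0479, range over settings 0.00211 to 0.482). EEF2K and EIF4EBP1 were the members in which knockdown replicate 2 departed most from the mean of the other knockdown libraries, by 0.44 and -0.39 on the log2 scale.

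Of 6 methyltransferases that modify elongation factors, 3 fell and none rose, where 27.8% of all genes fell and 29.5% rose. EEF1AKMT4 was at 2.6, 1.99 and 1.69 FPKM in knockdown libraries, against 3.7, 3.12 and 2.84 FPKM in control libraries (log2 change -0.45, SE 0.115, limma adjusted p = 0.0069). EEF1AKMT4 rests on 23 to 33 reads in knockdown and 39 to 55 in control libraries, and 46.8% of its exonic bases are shared with neighbouring coding genes. EEF1AKNMT, which methylates eEF1A at its first residue and at a lysine, was at 12.7, 11.2 and 11.5 FPKM in knockdown libraries, against 14.2, 15 and 14.2 FPKM in control libraries (log2 change -0.27, SE 0.0591, limma adjusted p = 0.00303), and this call was lost with a common sum (log2 change -0.12). EEF2KMT, which methylates eEF2, averaged 2.04 ± 0.195 FPKM after knockdown and 2.62 ± 0.414 FPKM in controls (log2 change -0.25, adjusted p = 0.0446), a call lost in 9 of 14 settings (range of adjusted p 0.0195 to 0.286).

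The lysine methyltransferases of eEF1A EEF1AKMT1, EEF1AKMT2 and EEF1AKMT3 averaged 6.84 ± 1.45 FPKM after knockdown and 7.64 ± 0.852 FPKM in controls, 1.38 ± 0.0763 FPKM after knockdown and 1.38 ± 0.401 FPKM in controls, and 3.93 ± 0.36 FPKM after knockdown and 4.36 ± 0.448 FPKM in controls, in that order. Their groups overlapped, and the adjusted p was between 0.243 and 0.931. EEF1AKMT1 was called lower without knockdown replicate 1 (-0.30).

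Ratios between paralogues were compared within each library for 7 pairs. For EIF5A2 over EIF5A the log2 ratio was -4.21, -3.92 and -4.18 in knockdown libraries, against -4.80, -4.87 and -4.80 in control libraries. For EIF4G3 over EIF4G1 it was -2.98, -3.17 and -2.99 in knockdown libraries, against -3.22, -3.27 and -3.32 in control libraries. Both ratios were higher in each knockdown library, by 0.72 and 0.23 on average. For EIF4E2 over EIF4E it was -0.24, -0.20 and -0.20 in knockdown libraries, against 0.04, -0.01 and -0.08 in control libraries, lower in each knockdown library by 0.19 on average. For EIF4A2 over EIF4A1 it was 4.87, 4.74 and 5.09 in knockdown libraries, against 5.72, 5.82 and 5.98 in control libraries, and for EEF1A2 over EEF1A1 it was -10.56, -10.27 and -10.63 in knockdown libraries, against -9.23, -9.94 and -9.65 in control libraries. These too were lower in each knockdown library, by 0.94 and 0.88, with the limits on EIF4A1 and EEF1A2 given above.

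In these 5 pairs exact permutation of the libraries (two-sided) gave p = 0.1, below which 3 against 3 cannot go, and 0.14 after Benjamini-Hochberg adjustment over the 7 pairs. EIF4EBP2 over EIF4EBP1 (difference 0.06, exact p = 1) and EIF1B over EIF1 (difference -0.22, exact p = 0.3) overlapped between groups. The design cannot reach a p under 0.05 for such a ratio.

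**Figure D4:**
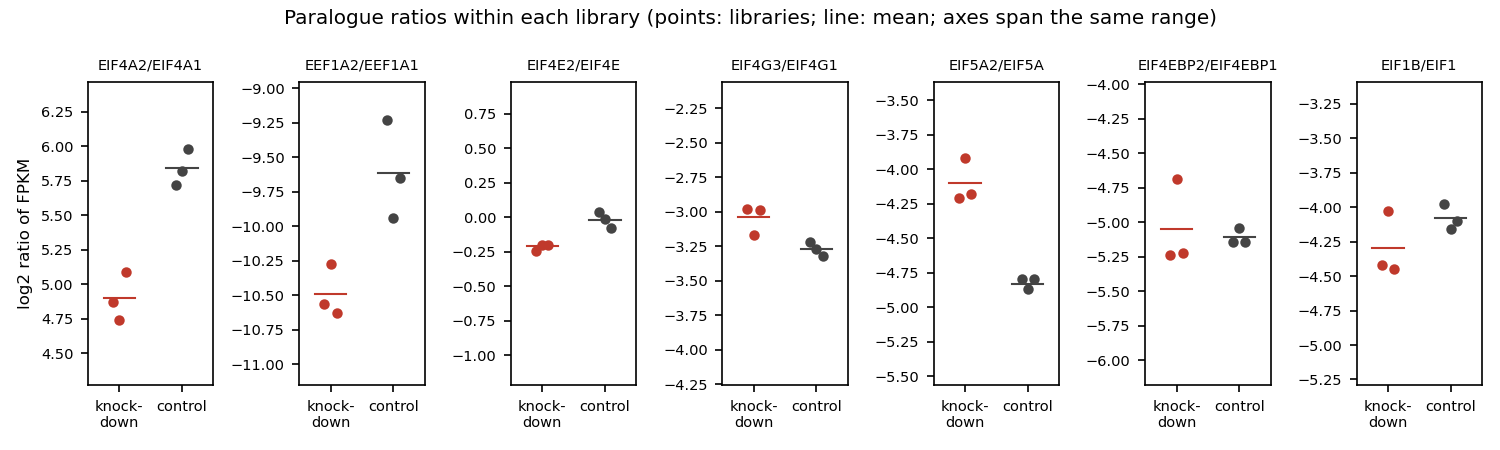
Log2 ratio of FPKM between paralogues within each library (vertical axes, each spanning the same range; points are replicates 1 to 3 from left to right, lines the mean of 3 libraries), knockdown left of control. In 5 of the 7 pairs the knockdown and control points do not overlap, and EIF4EBP2 over EIF4EBP1 and EIF1B over EIF1 overlap by knockdown replicate 2.

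Together the 62 members took 1.68%, 1.66% and 1.66% of the summed FPKM in knockdown libraries, against 1.46%, 1.42% and 1.43% in control libraries. The share was higher in every knockdown library (p = 0.1 by exact permutation, two-sided). The total it is a share of was lower in the knockdown, while the members' own summed FPKM was 4160, 3902 and 4117 in knockdown libraries, against 3952, 3910 and 3911 in control libraries, and overlapped between groups. Without EEF1A1 the share was 1.21% ± 0.0041 in knockdown and 1.08% ± 0.0133 in control libraries, but the summed FPKM was 2938 ± 99.2 after knockdown and 2943 ± 17.7 in controls (SD, n = 3). Of the recovered reads the members took 2.38% to 2.48% in knockdown and 2.28% to 2.31% in control libraries. Within the family, EEF1A1 and EEF2 held 39.5% to 40.0% of the FPKM in knockdown and 39.2% to 39.4% in control libraries.

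Length was taken from GENCODE v29 and need not be the length behind the deposited FPKM. In knockdown replicate 1, EIF3I had more recovered reads than EIF3G (2382 against 1068) at a lower FPKM (18.8 against 23.6). The length behind its FPKM was therefore the longer, whereas GENCODE v29 gives 1725 bases for EIF3I and 3486 for EIF3G. In the same library EIF4E2 had more recovered reads than EIF4E (586 against 525) at a lower FPKM (6.88 against 8.12). The length behind the FPKM of EIF4E was therefore the shorter, whereas GENCODE v29 gives 14067 bases for EIF4E and 7177 for EIF4E2. By the GENCODE lengths, length was related to the change over all genes but hardly over the members. The Spearman correlation of exonic length with the log2 change was 0.03 over the 62 members and 0.30 over 11209 tested genes, as a description across genes that share the same libraries. With the length trend removed, 17 members were higher and 20 lower, beside 28.0% higher and 28.7% lower among all genes, and 13 of the 15 rises and 18 of the 20 falls kept their call. The rises lost were those of EIF2S1 and EIF4E3, and the falls those of EIF3I and EEF2KMT. Where the GENCODE length differs from the one behind the FPKM, the value with the length trend removed is uncertain. EIF3I, EIF3E and EIF4E are examples, and other members were not checked for this.

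Genes that act on these factors were read in the same fit. Of 9 kinases and phosphatase genes of eIF2 alpha, 4 rose and 1 fell (median change 0.03), beside 29.5% and 27.8% of all genes. With a common sum 6 were higher and 1 lower, beside 43.4% and 16.4% of all genes. PPP1R15A, the stress-induced subunit that directs the phosphatase to eIF2 alpha, averaged 122 ± 5.66 FPKM after knockdown and 70.2 ± 1.04 FPKM in controls (log2 change 0.79, adjusted p = 1.09e-06). EIF2AK2, the kinase PKR that senses double-stranded RNA, averaged 25.2 ± 3.04 FPKM after knockdown and 16 ± 0.592 FPKM in controls (log2 change 0.62, adjusted p = 9.42e-05). Of 14 regulators of the cap-binding complex, 8 rose and none fell (median change 0.24), beside 29.5% and 27.8% of all genes. With a common sum 10 were higher and none lower (median change 0.4), beside 43.4% and 16.4% of all genes, whose median was then 0.14. LARP1B, a relative of the TOP mRNA binder LARP1, averaged 3.73 ± 0.323 FPKM after knockdown and 2.3 ± 0.156 FPKM in controls, and RPS6KB1, the S6 kinase below mTOR, averaged 7.34 ± 0.47 FPKM after knockdown and 5.35 ± 0.242 FPKM in controls (log2 changes 0.52 and 0.39, adjusted p = 3.29e-04 and 6.99e-04). The others that rose on the deposited values were MTOR, MKNK1, MKNK2, LARP1, PABPC1 and PAIP1, with log2 changes of 0.23 to 0.36.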

How the data were processed

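Total RNA was extracted with TRIzol and libraries were made with a TruSeq RNA kit, per the labels' protocols. The authors deposited FPKM values, 1 column a library. HISAT2 2.2.1 and GRCh38 are named in the submitters' processing notes. The sources used here do not name the counting program, annotation, gene lengths or strand setting. Because FPKM are relative to a library total, 1 abundant transcript can shift all others, and reads of overlapping genes or near-identical copies may have been divided or dropped.

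Whole reads were recovered for all 12829 genes from the steps of the FPKM values (tolerance 0.004 reads). A divisor common to all libraries cannot be seen. Groups came from the sample titles. Knockdown was compared with control in limma 3.58.1 (R 4.3.3), with a mean-variance trend, on log2(FPKM + 1) for the 11214 genes that averaged 0.5 FPKM or more, two-sided, with Benjamini-Hochberg adjustment over all of them and a threshold of 0.05. All 62 members passed that filter. Length, positions and overlaps came from GENCODE v29 (exons of all transcripts merged), in which 62 of 62 members matched by identifier. Single values were tested by exact permutation. The limma fit was checked on simulated reads. That simulation had few changed genes, larger changes than most members showed, and no shift in scaling between groups. It therefore does not cover small changes or the dependence on scaling.

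Alternatives were pseudocounts of 0.1 and 0.5, no filter and a filter at 5 FPKM, a common sum of FPKM, quantile normalization, removal of the trend over length, a replicate block, leaving out each library, and, added after seeing the data, voom on recovered reads. Values in every library are given for a chosen set of factors and for the 2 largest called changes of each complex whose groups did not overlap, and for related lists the 2 largest called changes. The members and lists were chosen with earlier results of these data known.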

Additional observations from a re-analysis of the deposited data

How the results depend on the processing

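The counts of members that rose (15) and fell (20) stayed within 1.5 times of these values in all settings but a common sum of FPKM, which gave 23 and 6. Leaving out 1 library gave 10 to 16 members higher and 15 to 22 lower, the lowest being without control replicate 2 for rises and without control replicate 1 for falls. Of the calls of single members, 15 rises and 18 falls were kept with quantile normalization and 15 rises and 6 falls with a common sum. EEF2 turned to 0.10 with quantile normalization and EIF4H to 0.14 with a common sum. The difference between knockdown and control in the log2 ratio of EIF4EBP2 to EIF4EBP1 ran from -0.12, without knockdown replicate 2, to 0.15 when 1 library was left out. The cause was not tested. The difference in the 4E-BP to eIF4E ratio, the share of FPKM and the other 6 paralogue ratios kept their sign in all settings run.

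Replicate numbers did not pair the libraries: deviations of same-numbered libraries from their group means correlated at -0.104, -0.055 and 0.056 for numbers 1, 2 and 3. No library correlated best with its own number. With a replicate block 15 members were higher and 20 lower, 15 of the rises and 18 of the falls being the same genes, with EEF1D and EEF2KMT lost and EEF1E1 and EIF3K gained. Planned count models were not run on the recovered reads. The added fit with voom on these reads gave 15 higher and 21 lower. Members with few reads, such as EIF3CL with 17 to 36 a library, limit what could be detected.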

Other observations

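Of 8 genes of termination, ribosome rescue and recycling, 7 were tested, 3 rose and 2 fell (median change 0.02), beside 29.5% and 27.8% of all genes. With a common sum of FPKM 4 were higher and none lower, beside 43.4% and 16.4% of all genes. DENR, a recycling and re-initiation factor, averaged 66.7 ± 5.37 FPKM after knockdown and 46.6 ± 1.91 FPKM in controls (log2 change 0.51, limma adjusted p = 8.53e-05), and ETF1, the release factor eRF1, averaged 61.1 ± 1.05 FPKM after knockdown and 45.5 ± 1.69 FPKM in controls (log2 change 0.42, limma adjusted p = 4.18e-05). ABCE1 and PELO, which split and rescue ribosomes, were the ones that fell on the deposited values. Of 9 mitochondrial translation factors measured, 1 rose and 3 fell (median change -0.02), or 4 and 1 with a common sum, beside the same shares of all genes. The elongation factor TUFM was at 81 ± 1.6 FPKM after knockdown and 105 ± 4.57 FPKM in controls (log2 change -0.37, limma adjusted p = 1.14e-04). The initiation factor MTIF2 was at 30.4 ± 0.667 FPKM after knockdown and 23.7 ± 0.501 FPKM in controls (log2 change 0.35, limma adjusted p = 1.28e-04).

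Of 10 genes for selenocysteine insertion and for the hypusine and diphthamide modifications of eIF5A and eEF2, 1 rose and 1 fell (median change -0.02), or 3 and 1 with a common sum. The shares of all genes were 29.5% and 27.8%, or 43.4% and 16.4% with a common sum. DHPS, the first enzyme of hypusine synthesis, averaged 0.649 ± 0.158 FPKM after knockdown and 1.09 ± 0.19 FPKM in controls (log2 change -0.34, limma adjusted p = 0.0127), and DPH3, an electron donor for diphthamide synthesis, averaged 5.03 ± 0.0774 FPKM after knockdown and 3.92 ± 0.204 FPKM in controls (log2 change 0.29, limma adjusted p = 0.00313). The E-box CACGTG, a palindrome bound by MYC and related factors, stood in the promoter window of 12 of 48 members (25.0%), beside 10.9% of protein-coding genes, and in 2 of 14 members that rose, 5 of 14 that fell and 5 of 20 that did not pass.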
